A study of Mus musculus with 8 samples.

Results

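The genes of fatty acid uptake and binding were followed in mouse liver, in libraries from mice given AAV2/9-SA and from mice given AAV2/9-Ctrl. The set holds 10 named genes of the 31910 in the count table. They are Fabp1, Fabp2, Fabp4 and Fabp5 of the fatty acid binding proteins, the fatty acid translocase Cd36, Slc27a2, Slc27a4 and Slc27a5 of the fatty acid transport proteins, and Lpl and Vldlr, which act on circulating lipoproteins. Members were found by symbol and not by a cutoff on their values, though the set was chosen with earlier results of these data known. Counts above 0 were present for 9 members and 17681 genes in all, and 9 members were among the 12358 genes tested. Fabp2 was listed at 0 in every library and was read from the deposited FPKM table, which holds 9 of the 10 members, all except Vldlr.

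Total RNA was sequenced from frozen liver, with 4 libraries in the SA group and 4 in the Ctrl group. AAV2/9 is an adeno-associated virus vector, given here through the tail vein at 4.8e10 vector genomes per mouse after 7 weeks of feeding. The labels do not spell out SA, and the series title speaks of a bacterial tetramer that binds acetyl-CoA carboxylase in steatohepatitis. Feeding in the design was with HFD for 24 weeks, with HFHC, rich in fat and cholesterol, plus fructose and sucrose to drink for 16 weeks, or with normal chow. The labels do not say which diet the mice of these libraries ate, nor their strain, sex or age, the vector's promoter, or whether each library came from a different mouse. All libraries share an AAV2/9 vector, so neither group is free of vector.

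Library totals were 14114145 to 28184001 counts in SA, the highest in SA 4, and 14359368 to 15328093 counts in Ctrl. The mitochondrial share of counts was 9.23% for Ctrl 4 and 3.55 to 4.87% elsewhere. All 10 hepatocyte markers were tested, and their summed level was 76161 to 101279 CPM in SA and 84288 to 116821 CPM in Ctrl. Marker lists of muscle and of intestinal epithelium summed to at most 0.603 CPM in any library. CPM are counts scaled to library size with TMM factors, and 3 counts, taken as the floor, were worth 0.108 to 0.215 CPM.

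Long-chain fatty acids reach hepatocytes as free acids bound to albumin and as triglyceride in lipoproteins. CD36 and the fatty acid transport proteins carry or trap them at the membrane, the transport proteins by joining them to coenzyme A, and binding proteins hold them in the cytosol. Lipoprotein lipase frees fatty acids from circulating triglyceride at the capillary wall, and the VLDL receptor takes up lipoprotein remnants. In healthy liver FABP1 is among the most abundant cytosolic proteins, whereas FABP4, CD36, lipoprotein lipase and the VLDL receptor are known for low levels that can increase in fatty liver.

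No member passed the test between SA and Ctrl livers. With edgeR's quasi-likelihood test and Benjamini-Hochberg adjustment over all genes, 0 of 9 members had an adjusted p under 0.05, and 2 of the 12358 genes did, 0.0162% of those tested, with 1 higher and 1 lower in SA (0.00809% each). DESeq2 called 0 members, against 0.346% of all genes, and limma on FPKM called 0 of 9 members, against 0.0324% of all genes. At an unadjusted p under 0.05 there was 1 member, Fabp4, by both count tests, where the share over all genes was 6.21% by edgeR and 5.26% by DESeq2. Log2 fold changes of SA over Ctrl were negative for 6 members and positive for 3, with a median of -0.15, beside 51.3% negative and a median of -0.01 over all genes tested. The number of negative members moved with the processing, to 8 of 9 (median -0.20) with upper-quartile scaling. On FPKM it was 4 of the 8 members tested on both scales (median -0.00). Those 8 leave out Vldlr, negative on counts, and Fabp2, negative on FPKM (-0.56), so the set of genes also differs. On counts, 3 of the 9 members had a log2 fold change within 0.05 of 0. The CPM ranges of the groups overlapped in all 9 members, and they did not overlap in 3.12% of all genes, with SA below Ctrl in 1.46%. On counts, the 95% interval excluded a 2-fold difference in either direction for 6 of 9 members, namely Fabp1, Cd36, Slc27a2, Slc27a4, Slc27a5 and Lpl. On FPKM the intervals of Cd36 (0.250 to 1.37 on the fold scale) and Slc27a2 (0.779 to 2.45) did not.

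**Figure D1:**
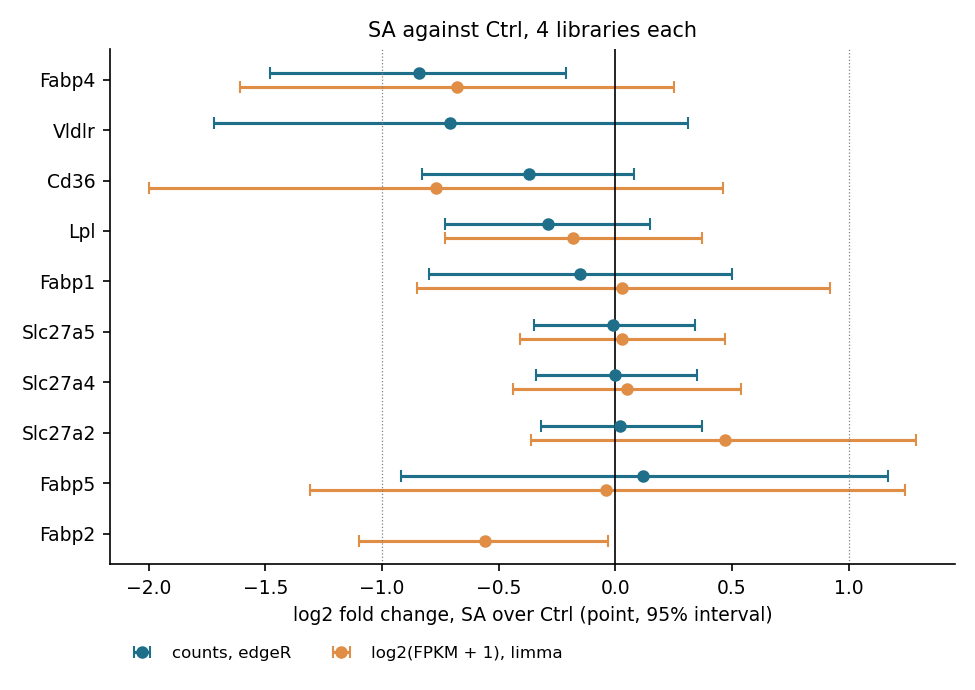
Log2 fold change of SA over Ctrl for each member (points) with its 95% interval (bars), from edgeR on counts and limma on log2(FPKM + 1), 4 libraries per group. The dotted lines mark 2-fold differences, and Fabp4 at -0.84 is the only count value whose interval lies wholly on 1 side of 0.

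These promoter windows are shown because they belong to members of widely different level, Fabp1, Slc27a2 and Cd36, and because each holds the AGGTCA motif, the core sequence bound by many nuclear receptors, PPARs and HNF4A among them. Each window runs from 250 bases before to 50 bases after the RefSeq transcript start in GRCm38.p6, written 5′ to 3′ on the gene's strand. Capitals mark AGGTCA, here always as its reverse complement TGACCT, and TATAAA, the TATA box.
Fabp1, chr6:71199629-71199928, plus strand: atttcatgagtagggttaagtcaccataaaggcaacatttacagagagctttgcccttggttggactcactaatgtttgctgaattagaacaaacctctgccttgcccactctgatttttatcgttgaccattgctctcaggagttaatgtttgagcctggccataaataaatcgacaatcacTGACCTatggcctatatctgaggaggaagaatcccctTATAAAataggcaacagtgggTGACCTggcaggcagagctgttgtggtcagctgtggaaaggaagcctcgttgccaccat
Slc27a2, chr2:126552774-126553073, plus strand: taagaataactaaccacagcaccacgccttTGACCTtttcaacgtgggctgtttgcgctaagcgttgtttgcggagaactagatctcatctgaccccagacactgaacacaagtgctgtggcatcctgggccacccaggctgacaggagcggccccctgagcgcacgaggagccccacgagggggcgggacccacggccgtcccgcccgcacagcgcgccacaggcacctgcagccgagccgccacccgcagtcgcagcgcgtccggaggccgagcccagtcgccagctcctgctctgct
Cd36, chr5:17835847-17836146, minus strand: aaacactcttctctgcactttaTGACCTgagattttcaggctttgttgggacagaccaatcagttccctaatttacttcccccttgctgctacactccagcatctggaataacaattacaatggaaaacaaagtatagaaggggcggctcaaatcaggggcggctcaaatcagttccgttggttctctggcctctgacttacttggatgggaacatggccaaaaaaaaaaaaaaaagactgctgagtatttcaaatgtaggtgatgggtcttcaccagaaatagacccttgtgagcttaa

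Counted from the transcript start to the leftmost base of the match, the Fabp1 window holds the motif at -67 and -9 and TATAAA at -30. Slc27a2 has the motif at -220 and Cd36 at -228, both without TATAAA. The RefSeq table had windows for 6 of the 10 members, of which 3 hold AGGTCA on either strand and 1 holds TATAAA. Over all 32851 promoter windows of the same length, 5340 hold AGGTCA (16.3%) and 4473 hold TATAAA (13.6%), searched on both strands, and the motifs do not overlap each other. Such matches describe letters and do not show binding.

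In the GENCODE annotation of GRCm38 Fabp2, Fabp4 and Fabp5 lie on chromosome 3, Fabp1 on 6, Cd36 on 5, Slc27a2 and Slc27a4 on 2, Slc27a5 on 7, Lpl on 8 and Vldlr on 19.

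Levels of the members spanned several orders of magnitude. Per kilobase of principal transcript, Fabp1 was highest, with 4049 ± 1381 CPM per kb (mean ± SD of all 8 libraries), followed by Slc27a2 with 767 ± 76.5, Slc27a5 with 434 ± 52.8 and Cd36 with 85.6 ± 22.4 CPM per kb. Each of these stood above the next in 8 of 8 libraries. Fabp4 (20.0 CPM per kb), Lpl (20.0), Fabp5 (17.8) and Slc27a4 (13.6) did not separate, since neighbours in that order kept their rank in 3, 6 and 4 of 8 libraries. Vldlr was last in every library at 0.582 ± 0.318 CPM per kb. In the FPKM table Fabp2 came between Slc27a5 and Cd36 in all 8 libraries, with a mean of 215 FPKM, while Cd36 (28.0 FPKM) stood beside Lpl (26.1), Fabp4 (25.4), Fabp5 (23.3) and Slc27a4 (18.4). Cd36 therefore ranked apart from those genes by counts per length and among them by FPKM.

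**Figure D2:**
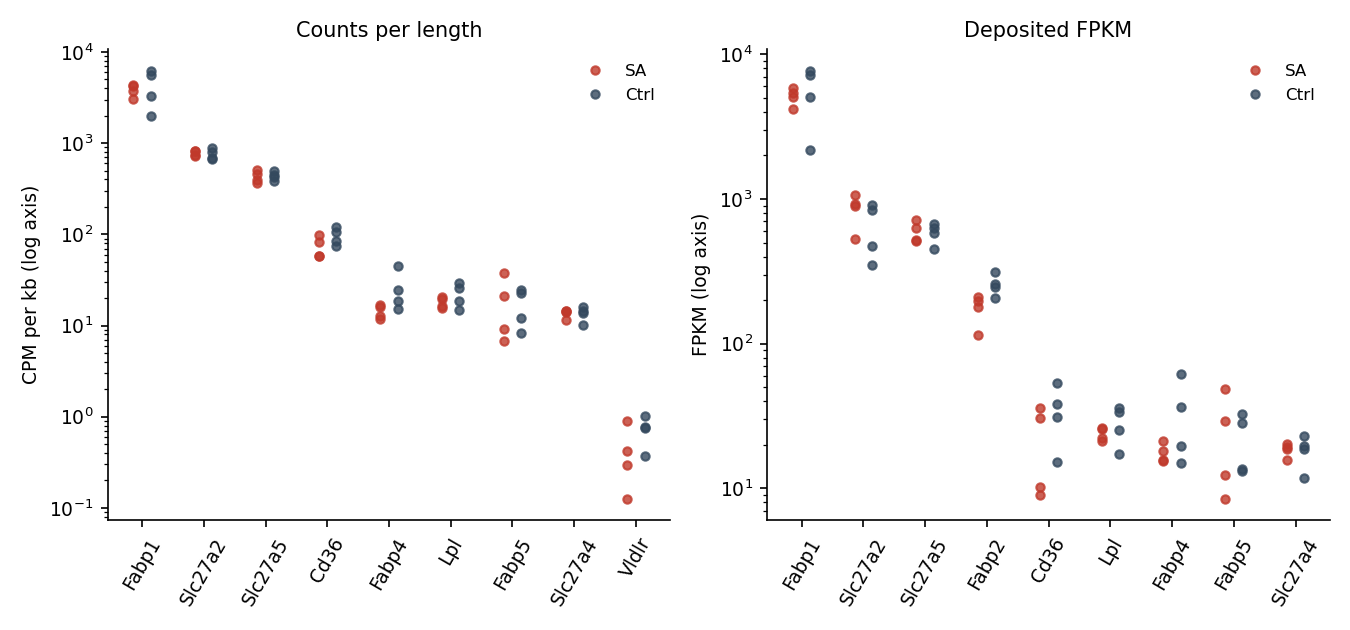
Level of each member per transcript length in every library on log axes, as CPM per kb (left) and as deposited FPKM (right), with SA points to the left of Ctrl points. Fabp1 is highest on both scales, and Vldlr, shown by counts only, lies at 0.126 to 0.894 CPM per kb in SA and 0.372 to 1.01 CPM per kb in Ctrl.

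Among the binding proteins, Fabp1, the liver form that carries fatty acids and acyl-CoA in hepatocytes, had 2346, 2421, 1678 and 2047 CPM in the SA libraries, against 3071, 3456, 1809 and 1087 CPM in the Ctrl libraries. The SA values lay inside the Ctrl range, and both the highest and the lowest library were Ctrl. Means were 2123 ± 338 CPM in SA and 2356 ± 1100 CPM in Ctrl (SD, n = 4), with a log2 fold change of -0.15 ± 0.30 (SE; 95% interval -0.80 to 0.50; edgeR, adjusted p = 0.996). Ctrl 4, the library with the high mitochondrial share, had the lowest Fabp1, and without it the log2 fold change was -0.40; without Ctrl 2 it was 0.10. Fabp1 made up 98.7 to 99.5% of the summed CPM per kb of Fabp1, Fabp4 and Fabp5 in SA libraries and 98.0 to 99.5% in Ctrl libraries.

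Fabp2, the intestinal form, had 178, 198, 114 and 210 FPKM in SA, against 311, 258, 206 and 248 FPKM in Ctrl. Of the SA libraries 3 lay below every Ctrl library, and SA 4 lay between Ctrl 3 and Ctrl 4. Means were 175 ± 42.9 FPKM in SA and 255 ± 43.2 FPKM in Ctrl (SD, n = 4). On the log2(FPKM + 1) scale the difference was -0.56 ± 0.23 (SE; 95% interval -1.10 to -0.03), with an unadjusted p of 0.0402 and an adjusted p of 0.999 by limma; 3.52% of the genes in that table had an unadjusted p under 0.05. Leaving out 1 library at a time gave -0.66 to -0.37.

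The count table lists Fabp2 at 0 in all 8 libraries, although the FPKM table lists it above Cd36. In the GENCODE annotation of GRCm38 Fabp2 lies within the span of 4933405D12Rik, an antisense gene on the opposite strand whose exons share 0 bases with it and which had 5 to 53 counts per library. Of the 495 genes at 0 counts in all libraries that the FPKM table holds, 477 were annotated, and 476 of these (99.8%) had a span that overlaps another gene. Among genes tested on counts and in the FPKM table, 3950 of 7827 (50.5%) did. The labels do not say how reads in overlapping genes were counted, and the effect of that step was not tested.

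Fabp4, the form of adipocytes, macrophages and capillary endothelium, had 15.1, 10.4, 11.5 and 14.3 CPM in SA, against 40.4, 16.5, 21.8 and 13.5 CPM in Ctrl. Ctrl 1 was the highest of the 8 libraries, 3 of 4 Ctrl libraries exceeded every SA library, and Ctrl 4 lay within the SA range. Means were 12.8 ± 2.21 CPM in SA and 23.1 ± 12.1 CPM in Ctrl (SD, n = 4). The log2 fold change of -0.84 ± 0.29 (SE; 95% interval -1.48 to -0.21) was the most negative of the members and had an unadjusted p of 0.0135, but an adjusted p of 0.594 by edgeR and 0.355 by DESeq2. Without Ctrl 1 the log2 fold change was -0.44, and without Ctrl 4 it was -1.03. The FPKM table gave -0.68 ± 0.40 on the log2(FPKM + 1) scale (SE; limma, adjusted p = 0.999).

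Fabp5, the epidermal form that macrophages also make, had 37.0, 9.01, 21.0 and 6.69 CPM in SA, against 22.7, 11.9, 8.21 and 24.5 CPM in Ctrl. It varied more within groups than between their means, and SA held both its highest and its lowest value. The log2 fold change was 0.12 ± 0.48 (SE; 95% interval -0.92 to 1.17; edgeR, adjusted p = 0.996), at -0.47 without SA 1 and 0.40 without SA 4. The annotation also holds a processed pseudogene of Fabp5, and how reads that match both were counted was not tested.

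**Figure D3:**
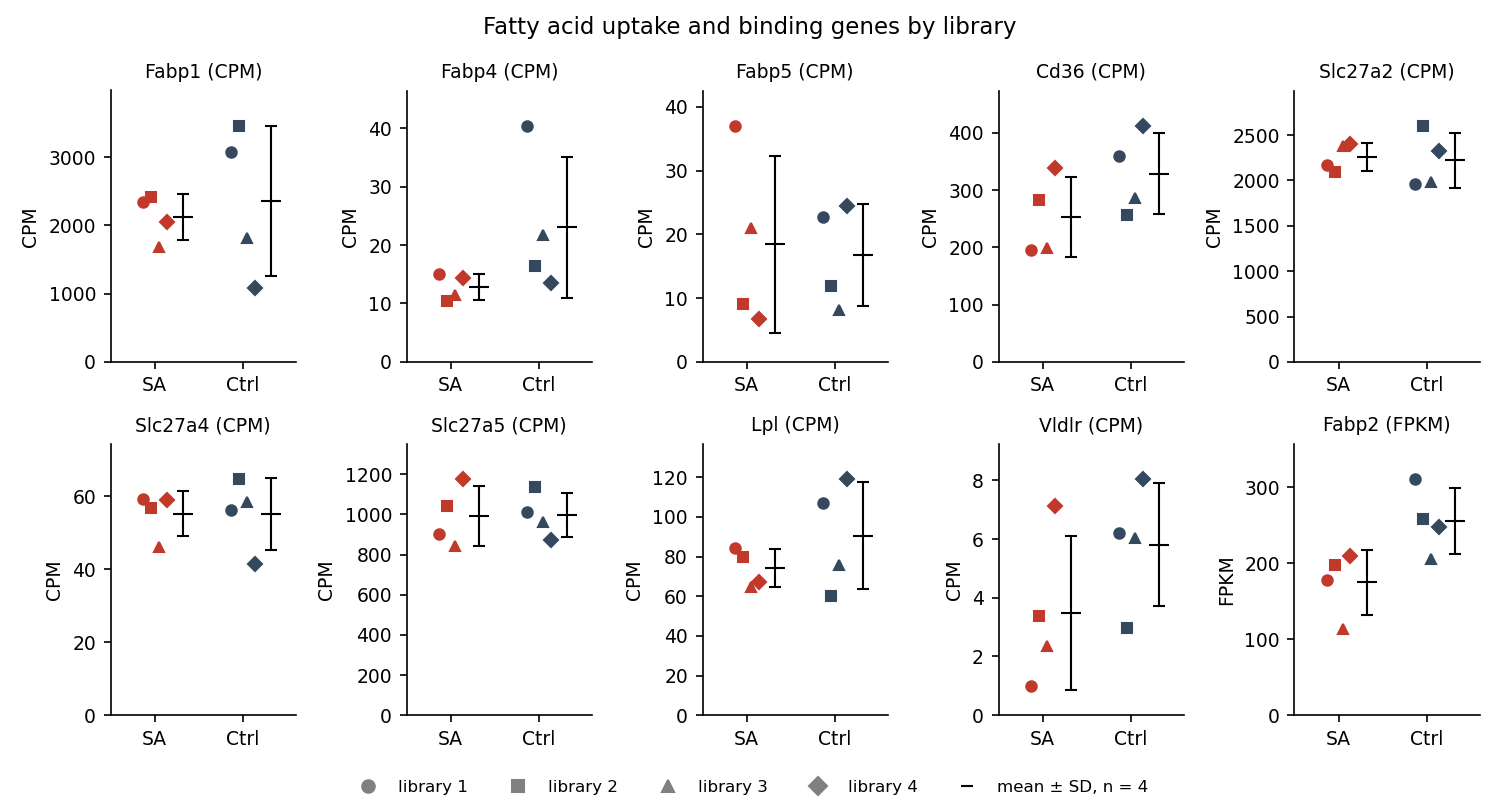
Level of each member in every library, SA left of Ctrl, as CPM and, for Fabp2, as FPKM, with the mean and SD of 4 libraries beside the points. In Fabp4 the SA libraries sit between 10.4 and 15.1 CPM and Ctrl 1 stands at 40.4 CPM, while in Slc27a2 all 8 libraries lie between 1966 and 2601 CPM.

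Cd36, the fatty acid translocase and a scavenger receptor of oxidised lipoproteins, had 195, 283, 198 and 338 CPM in SA, against 360, 256, 286 and 412 CPM in Ctrl. SA 1 and SA 3 lay below every Ctrl library and Ctrl 1 and Ctrl 4 above every SA library, with the other 4 libraries in the shared range. Means were 254 ± 69.7 CPM in SA and 329 ± 70.5 CPM in Ctrl (SD, n = 4), and the log2 fold change was -0.37 ± 0.21 (SE; 95% interval -0.83 to 0.08; edgeR, adjusted p = 0.936). It was -0.55 without SA 4 and -0.25 without Ctrl 4, and negative in every alternative run.

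By CPM the fatty acid transport proteins were the least variable members, with the highest library 1.32 times the lowest for Slc27a2, 1.39 times for Slc27a5 and 1.56 times for Slc27a4, against 1.98 times for Lpl, the next in order; in FPKM this ratio was 3.01 for Slc27a2 and 2.09 for Lpl. Slc27a2 (FATP2), a transporter and very-long-chain acyl-CoA synthetase of hepatocytes, had 2166, 2088, 2375 and 2399 CPM in SA, against 1966, 2601, 1988 and 2328 CPM in Ctrl. Slc27a5 (FATP5), which also joins bile acids to coenzyme A, had 903, 1042, 845 and 1176 CPM in SA, against 1013, 1136, 963 and 872 CPM in Ctrl. Slc27a4 (FATP4), a form best known from intestine and skin, had 59.2, 56.7, 46.1 and 58.9 CPM in SA, against 56.2, 64.7, 58.3 and 41.4 CPM in Ctrl. The groups overlapped in each of them.

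Log2 fold changes were 0.02 ± 0.16 for Slc27a2 (95% interval -0.32 to 0.37), -0.01 ± 0.16 for Slc27a5 (-0.35 to 0.34) and 0.00 ± 0.16 for Slc27a4 (-0.34 to 0.35), each with its SE. The adjusted p by edgeR was 0.996 for Slc27a2, 0.997 for Slc27a5 and 0.998 for Slc27a4. On the fold scale the intervals ran from 0.800 to 1.29 for Slc27a2, from 0.782 to 1.27 for Slc27a5 and from 0.788 to 1.27 for Slc27a4. Of the summed CPM per kb of these transport proteins, Slc27a2 took 60.4 to 68.1% in SA and 59.6 to 67.1% in Ctrl. Slc27a4 took 0.953 to 1.27% in SA and 0.858 to 1.29% in Ctrl. In the annotation 419 exon bases of Slc27a2, 11.2% of its merged exons, are shared with Gm26697 on the opposite strand, and reads there cannot be assigned without strand.

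Lpl, lipoprotein lipase, which the adult liver makes at a low level, had 84.4, 79.9, 64.5 and 67.3 CPM in SA, against 107, 60.3, 75.9 and 119 CPM in Ctrl. The SA libraries all lay between Ctrl 2 and Ctrl 1. Means were 74.0 ± 9.61 CPM in SA and 90.7 ± 27.3 CPM in Ctrl (SD, n = 4), and the log2 fold change was -0.29 ± 0.20 (SE; 95% interval -0.73 to 0.15; edgeR, adjusted p = 0.975).

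Vldlr, the VLDL receptor, was the member with the lowest level and had 1.01, 3.38, 2.35 and 7.12 CPM in SA, against 6.21, 2.96, 6.03 and 8.04 CPM in Ctrl. These rest on 15, 54, 34 and 197 counts in SA and on 91, 43, 100 and 112 counts in Ctrl. SA 1 and SA 3 lay below every Ctrl library, and SA 4 lay above 3 of the 4 Ctrl libraries. The log2 fold change was -0.71 ± 0.47 (SE; 95% interval -1.72 to 0.31; edgeR, adjusted p = 0.965). It was -1.37 without SA 4 and -0.41 without SA 1.

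Fabp4, Cd36 and Lpl are also made by cells other than hepatocytes, so marker lists of those cells were set beside them. In bulk tissue fewer cells of a type and less RNA per cell cannot be told apart. Of 11 markers of lipid-associated and recruited macrophages, 11 were negative (median log2 fold change -0.97). By edgeR 8 of them had an unadjusted p under 0.05 in that direction, against 3.29% of all genes. All 8 had their highest value in Ctrl 1, so they are not separate results. This and the other lists were chosen with earlier results of these data known, so such shares are descriptive only. The summed level of these 11 markers was 139 to 158 CPM in SA and 408, 128, 195 and 284 CPM in Ctrl. Spp1 and Ctsd weighed most in the sum, with 56.9 and 55.7 CPM in SA 1 and 28.0 and 59.7 CPM in Ctrl 2. Ctrl 1 was highest in this sum and in Fabp4, but Ctrl 4, the next in the sum, had the lowest Ctrl value of Fabp4, and Ctrl 2 had the lowest sum with more Fabp4 than any SA library. Gpnmb, a glycoprotein of lysosomes, was at 3.11 ± 0.475 CPM in SA and 23.6 ± 21.3 CPM in Ctrl (SD, n = 4; edgeR, adjusted p = 0.227; DESeq2, adjusted p = 0.0132). Cx3cr1, a chemokine receptor, had -1.78 on the log2 scale (edgeR, adjusted p = 0.367; DESeq2, adjusted p = 0.0204), and Ccr2, the receptor of recruited monocytes, had -1.43 (edgeR, adjusted p = 0.480).

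Resident Kupffer cell and macrophage markers had 11 of 12 positive values with a median of 0.23 and summed to 763 to 1085 CPM in SA and 521 to 1010 CPM in Ctrl. Among them Lyz2 had -0.54, Timd4 0.71 and Clec4f 0.45, none past the adjusted threshold. Of 12 endothelial markers 11 were tested, with a median of -0.15 and sums of 283 to 453 CPM in SA and 365 to 448 CPM in Ctrl. Of these, 4 were positive and 7 negative; the markers with the smallest p were Lyve1 at -0.71, Rspo3 at -0.54 and Emcn at -0.36, and none passed the adjusted threshold. Stellate cell and fibroblast markers had 9 of 9 tested values negative, with a median of -0.67. They summed to 282 to 361 CPM in SA and 348 to 828 CPM in Ctrl. Lrat was at 0 counts but at 6.06 to 7.91 FPKM in SA and 6.10 to 11.4 FPKM in Ctrl. Col3a1 had -1.58, Col1a1 -2.04 and Dcn -0.67, with adjusted p of 0.342, 0.367 and 0.485 by edgeR, none past the threshold. Col1a1 was at 10.9 to 24.3 CPM in SA and 14.8 to 140 CPM in Ctrl, with Ctrl 1 the highest.

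Of 10 adipocyte markers 6 were tested, 2 positive and 4 negative, with a median of -0.68 and sums of 233 to 358 CPM in SA and 400 to 488 CPM in Ctrl. The markers that define adipocytes were at or near 0, with 3 counts of Adipoq, 3 of Plin1, 0 of Lep and 10 of Retn over all 8 libraries. Cidec, a lipid droplet protein that steatotic hepatocytes also make, had -0.94, Cfd -1.46 and Slc2a4 -1.22, the smallest p of the list. Their adjusted p by edgeR were 0.442, 0.480 and 0.595, none past the threshold, and Slc2a4 was at only 0.415 to 2.55 CPM. At an unadjusted p under 0.05 by edgeR, 1 marker was higher (background 2.91%) and 3 were lower (background 3.29%) in SA. The part of any of these cell types in the values of Fabp4, Cd36 or Lpl was not tested.

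The genes around the members came from 6 lists of 86 genes, of which 71 were tested. None passed by edgeR, and 2 passed by DESeq2, Ehd2 and Nr1i3, where the share over all genes was 0.346%. At an unadjusted p under 0.05 by edgeR 3 were higher (background 2.91%) and 4 lower (background 3.29%) in SA, together 9.86% of the 71 against 6.21% of all genes. Log2 fold changes were positive for 43 and negative for 28, with a median of 0.08.

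Partners of the membrane transporters had a mixed pattern. CD36 trafficking and caveola genes had 7 of 11 tested, 3 positive and 4 negative, with a median of -0.08. Ehd2, an ATPase at the neck of caveolae, had 4.96, 4.88, 3.60 and 4.09 CPM in SA, against 12.4, 5.79, 7.84 and 10.3 CPM in Ctrl. Every SA library lay below every Ctrl library, and its log2 difference was -1.05 ± 0.25 (SE; edgeR, adjusted p = 0.342; DESeq2, adjusted p = 0.0300). Cavin1, which builds the caveola coat, had -0.79 ± 0.25 (SE; edgeR, adjusted p = 0.535), and Zdhhc5, an acyltransferase that palmitoylates CD36, had 0.27 ± 0.14. Cav1, Cav2 and Cavin2 were at 0 counts, with 0.444 to 1.80 FPKM of Cav1 in SA and 0.612 to 2.60 FPKM in Ctrl. Cav2 was at 3.08 to 4.39 FPKM in SA and 2.54 to 6.55 FPKM in Ctrl. Cavin2 was at 7.04 to 10.8 FPKM in SA and 9.23 to 12.9 FPKM in Ctrl.

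Acyl-CoA synthetases and acyl-CoA binding proteins had 12 of 13 tested, 8 positive and 4 negative, with a median of 0.06. Acsl4, which prefers arachidonic acid, was at 76.9 ± 9.96 CPM in SA and 112 ± 42.6 CPM in Ctrl (SD, n = 4; log2 fold change -0.55 ± 0.23, SE; edgeR, adjusted p = 0.761), and on FPKM the value was -1.96 ± 0.91 (SE; limma, adjusted p = 0.999). Acsl3 had -0.30 and Acsm5 0.20. Other members of the FABP, FATP and CD36 families had 5 of 9 tested, with a median of -0.17, and the smallest p in that list were those of Scarb1, the HDL receptor (-0.15), Slc27a3 (-0.49) and the lysosomal receptor Scarb2 (0.17). Fabp6 was at 0 counts, and Slc27a6, Fabp3 and Fabp12 were too low to test.

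Partners of lipoprotein lipase had 12 of 15 tested, 4 positive and 8 negative, with a median of -0.09. Gpihbp1, which carries the lipase across capillary endothelium, was at 18.8 ± 1.35 CPM in SA and 23.3 ± 6.46 CPM in Ctrl (SD, n = 4; log2 fold change -0.31 ± 0.19, SE; edgeR, adjusted p = 0.954). Pcsk6, a proprotein convertase, had 0.21, and Sel1l, which helps the lipase leave the endoplasmic reticulum, had 0.16. Angptl8, which takes part in inhibiting the lipase, and the lipase cofactor Apoc2 were at 0 counts. In the FPKM table Angptl8 was at 51.1 ± 17.2 FPKM in SA and 31.9 ± 18.4 FPKM in Ctrl (SD, n = 4). Apoc2 was there at 8.97 ± 9.78 FPKM in SA and 57.9 ± 104 FPKM in Ctrl (SD, n = 4). The Ctrl mean of Apoc2 rests on Ctrl 3 alone. Its values were 0.809, 0.908, 13.6 and 20.5 FPKM in SA, against 0.485, 6.17, 214 and 10.8 FPKM in Ctrl. Lipoprotein receptors and their adaptors had 14 of 16 tested, 10 positive and 4 negative, with a median of 0.13. Lrp1, a remnant receptor, had 0.46 ± 0.21 (SE; edgeR, adjusted p = 0.802), Lrp2 0.85 and the proteoglycan Sdc1 0.26.

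Transcription factors known to regulate the members had 21 of 22 tested, 17 positive and 4 negative, with a median of 0.17. Hnf4a, a hepatocyte factor, had 528, 812, 674 and 720 CPM in SA, against 412, 399, 527 and 454 CPM in Ctrl. Every SA library lay above every Ctrl library, though SA 1 and Ctrl 3 were nearly equal, and the difference on the log2 scale was 0.61 ± 0.17 (SE; edgeR, adjusted p = 0.425). Nr1i3, the constitutive androstane receptor, was at 18.4 ± 2.37 CPM in SA and 10.4 ± 2.46 CPM in Ctrl (SD, n = 4), also without overlap, at a log2 difference of 0.82 ± 0.19 (SE; edgeR, adjusted p = 0.342; DESeq2, adjusted p = 0.0494). Pparg, the receptor that drives Fabp4 and Cd36 in adipocytes and macrophages, had 13.5, 12.1, 14.5 and 18.1 CPM in SA, against 26.5, 21.6, 18.3 and 19.5 CPM in Ctrl. Its SA values lay below all Ctrl values, though SA 4 and Ctrl 3 were nearly equal. The log2 difference of Pparg was -0.56 ± 0.18 (SE), with an adjusted p of 0.541 by edgeR. The FPKM table gave 0.01 ± 0.73 for Pparg on the log2(FPKM + 1) scale (SE; limma, adjusted p = 0.999), and 0.51 ± 0.92 for Cidec, so the direction of both rests on the counts.

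**Figure D4:**
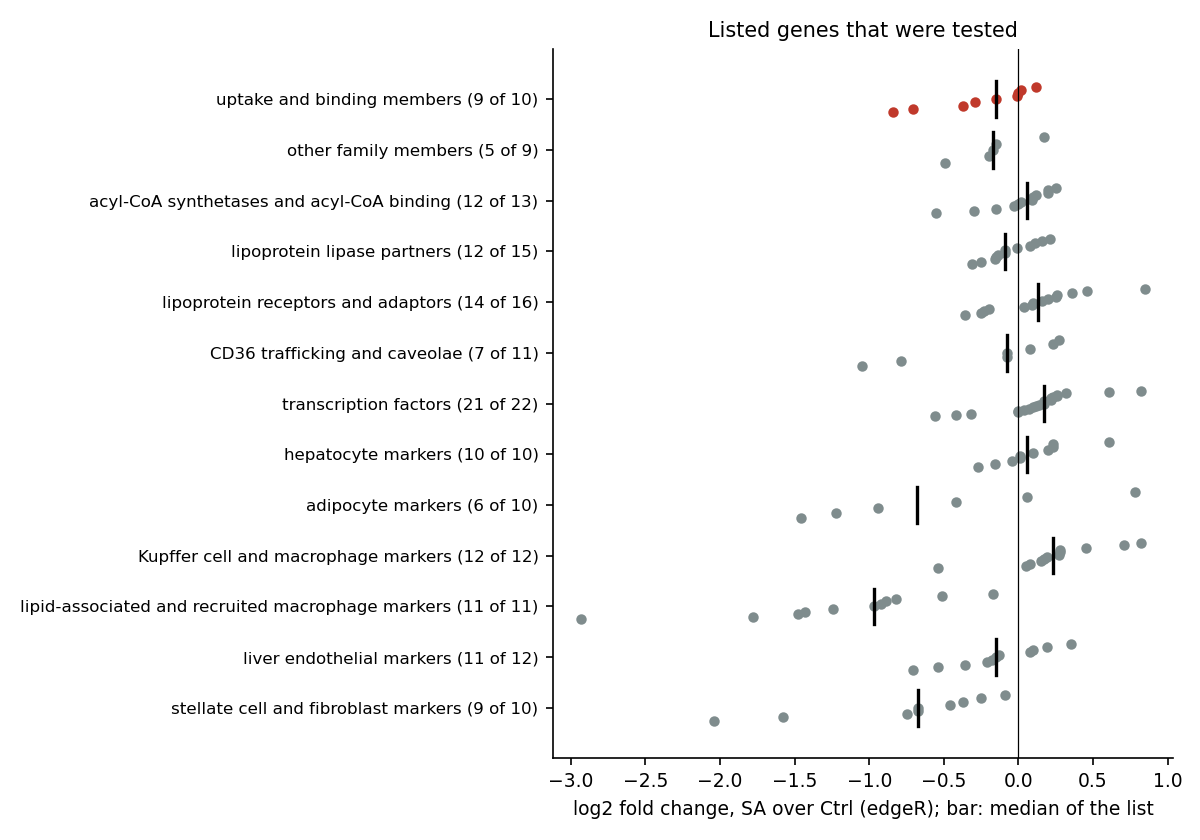
Log2 fold change of SA over Ctrl from edgeR for every tested gene of each list (points) with the list median (bar), the members on top; the numbers give tested and listed genes. The members' median is -0.15, and that of lipid-associated and recruited macrophage markers is -0.97.

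The genes nearest in pattern to 3 members were sought over the 8 libraries, as the root-mean-square distance between standardised log2 CPM profiles. Nearest to Fabp4 were Tmem43 (distance 0.242), Emp3 (0.245), Fzd1 (0.270), Col16a1 (0.291) and Lsp1 (0.304). Nearest to Cd36 were Aplp2 (0.337), Sgk1 (0.343), Map2k1 (0.363), Gcnt1 (0.366) and Ugp2 (0.389), and nearest to Vldlr were Cyp3a11 (0.299), Ctse (0.303), Rgs16 (0.355), Slc16a5 (0.366) and Rgma (0.382). These were picked for likeness, and their own levels differ widely, with Cyp3a11 at 2561 ± 814 CPM in SA and 3318 ± 592 CPM in Ctrl (SD, n = 4).

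The count and FPKM tables did not give the same profile for every member. Across 7940 genes, each library's FPKM deviations from the gene means correlated with those of its own count column at r = 0.262 to 0.458, and with any other library's column at no more than 0.0953; genes are not independent replicates. Slc27a2 had a log2 range over libraries of 0.40 in CPM and 1.59 in FPKM, and only 3 of 8 libraries lay on the same side of the mean on both scales. Its FPKM values were 891, 926, 1059 and 525 in SA, against 909, 471, 352 and 837 in Ctrl, with a log2 fold change of 0.47 ± 0.36 (SE; limma, adjusted p = 0.999). Cd36 had a log2 range of 1.08 in CPM and 2.57 in FPKM, with 8 of 8 libraries on the same side. Its FPKM values were 9.07, 30.8, 10.2 and 35.7 in SA, against 53.7, 15.3, 38.2 and 31.1 in Ctrl, with a log2 fold change of -0.77 ± 0.54 (SE; limma, adjusted p = 0.999). The sign of the group difference was the same on both scales for 5 of the 8 members tested on both.

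**Figure D5:**
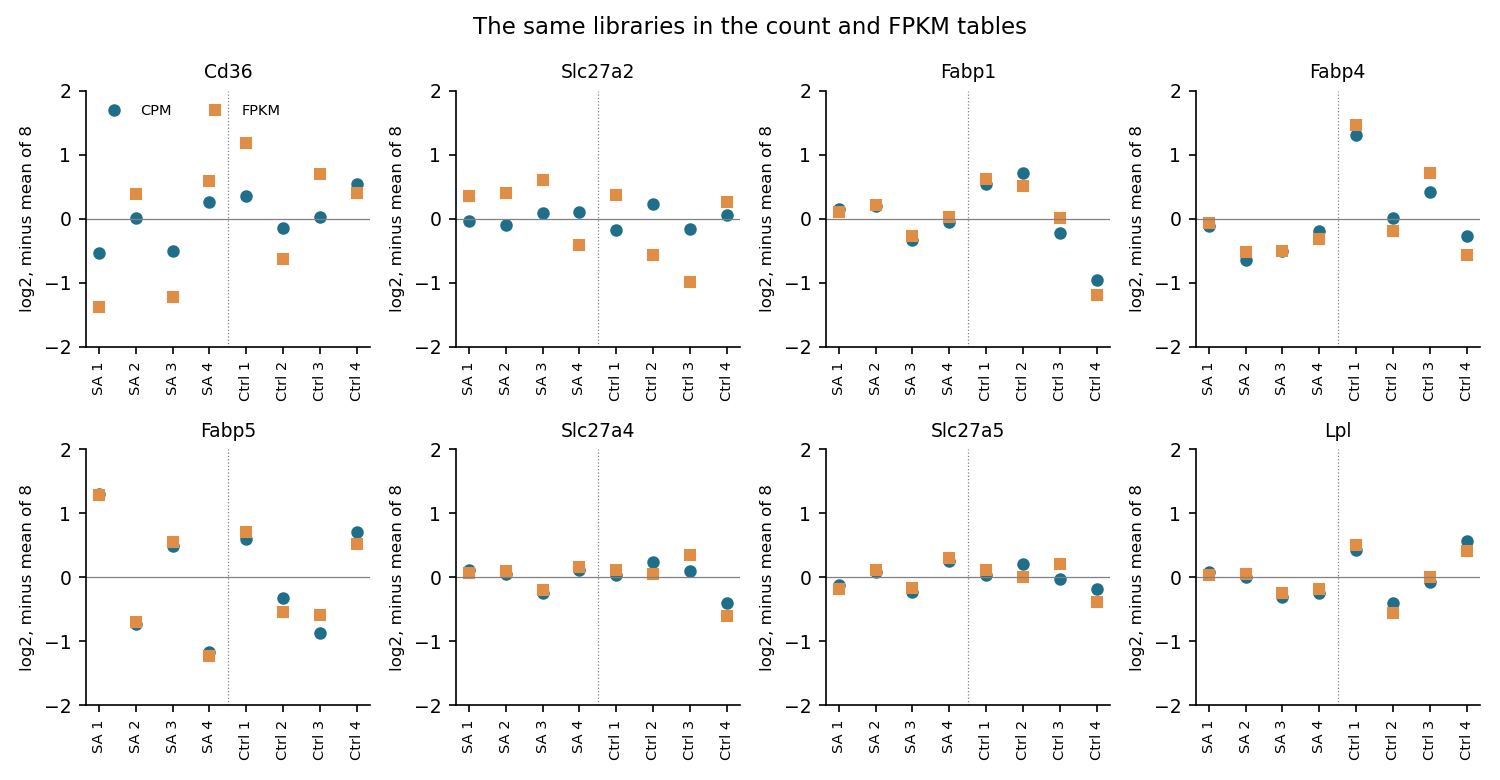
Log2 level of each member in every library minus its mean over the 8 libraries, from counts (CPM) and from the deposited FPKM, with SA libraries left of Ctrl libraries. The scales lie close together for Fabp4 and Fabp5, spread further in FPKM for Cd36, and part for Slc27a2, whose log2 range is 0.40 in CPM and 1.59 in FPKM.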

How the data were processed

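Liver RNA of 4 SA and 4 Ctrl libraries was measured by RNA-seq, and groups follow the agent named in the labels. The deposited counts are whole, unnormalised read counts per gene, and the deposited FPKM values are scaled to transcript length and library size. Per the submitters' processing notes HISAT2 and StringTie 2.2.1 were used, with GRCm39 and mm10 named as builds; the counting program and its handling of strand are not given in the sources used here. Counts of all genes were tested with edgeR 4.0.16 in R 4.3.3 (quasi-likelihood, TMM, filterByExpr, Benjamini-Hochberg; adjusted p under 0.05), and FPKM with limma 3.58.1 on log2(FPKM + 1), for genes at 0.5 FPKM or more in 4 libraries. On that scale the changes of low genes are understated. Alternatives were DESeq2 1.42.0, other scalings and filters, pseudocounts, a replicate block and leaving out each library. The fit was tested on simulated data. The edgeR coefficient of variation between libraries was 22.6%. No libraries agreed within sampling noise (lowest chi-square per degree of freedom 24.6).

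Members and lists were chosen with earlier results of these data known. Named genes are all members, from each list the genes past the threshold or otherwise the 3 with the smallest p, and the 5 nearest in profile to the 3 members with the smallest p; other genes named were chosen after their values were seen, for being at 0 or too low to test. Since the labels name no separate animals, the spread that p-values measure is that between libraries and may be technical. Length is that of the principal transcript in GENCODE for GRCm38, and promoter sequences are from RefSeq.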

Additional observations from a re-analysis of the deposited data

How the results depend on the processing

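No member was called in any of 150 values under alternatives to the settings above, and Fabp2 in none of its 11. The number of genes called moved: DESeq2 called 60 (23 higher, 37 lower in SA), no filter on low counts 8 (3 higher, 5 lower), the replicate block 6 (5 lower), and FPKM, with either pseudocount or no filter, 0 higher and 3 lower, against 2 by edgeR (1 higher, 1 lower). Leaving out a library gave 0 to 19 genes (0 to 13 higher, 0 to 6 lower), most without SA 1. DESeq2 called 2 of the listed pathway genes, against 0 by edgeR. Of their alternative runs, Ehd2 passed in 1 of 14 and Nr1i3 in 1 of 17. Gpnmb, called by DESeq2, also passed in edgeR with no filter (adjusted p = 0.0164) and without Ctrl 2 (adjusted p = 0.0135). Log2 fold changes near 0 turned sign: Slc27a2 to -0.01 with upper-quartile scaling; Slc27a4 to -0.00314 with DESeq2, -0.00631 with RLE, -0.04 with upper-quartile scaling and -0.00431 with a minimum of 1 CPM in 4 libraries; Fabp5 to -0.03 with the replicate block; and, with FPKM, Fabp1 to 0.03, Slc27a5 to 0.03 and Fabp5 to -0.04, or -0.05 at a pseudocount of 0.1. Among the listed genes, FPKM turned Cidec to 0.51 and Pparg to 0.01, or 0.56 and 0.24 at a pseudocount of 0.1; the cause was not tested. FPKM also moved, with the same sign, Acsl4 to -1.96, Aplp2 to -2.58, Apoa1 to -0.94, Gpihbp1 to -0.92, Ccr2 to -0.63 and Col1a1 to -1.44. Without 1 library, Fabp1 ran from -0.40 to 0.10, Fabp5 from -0.47 to 0.40, Slc27a2 from -0.04 to 0.11, Slc27a4 from -0.12 to 0.09 and Slc27a5 from -0.11 to 0.07. Fabp4, Cd36, Vldlr, Lpl and Fabp2 kept a negative sign in every alternative run. The replicate numbers did not visibly pair the libraries. Same-numbered libraries had correlations of deviations of -0.023, -0.0198, 0.219 and -0.218, and no SA library correlated best with the Ctrl library of its own number. With 4 libraries per group these correlations do not settle whether a pairing existed. At these depths Vldlr, with 15 to 197 counts a library, is the member that counting limits most. The intervals include a 2-fold difference for Vldlr, Fabp5 and Fabp4 on counts. On FPKM they do so for Fabp2, Cd36, Fabp4, Fabp5 and Slc27a2.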
